A study of Mus musculus with 9 samples.

Results

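Interleukin-6 (IL-6) family cytokines are secreted proteins that bind receptor complexes built around the shared signal-transducing chain gp130, encoded by Il6st. The 10 genes described here are 5 cytokines (Lif, Clcf1, Il11, Osm and Il6) and 5 receptor chains (Lifr, Osmr, Il6st, Il6ra and Il11ra1), taken by gene symbol from the 22609 genes listed in each count file. This rule uses no measured value, but the genes were chosen with earlier results of these data known. Leukemia inhibitory factor (LIF) pairs the LIF receptor chain (LIFR) with gp130. Oncostatin M (OSM) pairs gp130 with the OSM receptor chain (OSMR) or, in some settings, with LIFR. IL-6 and IL-11 first bind their own private chains, which do not signal by themselves, and then gp130, while cardiotrophin-like cytokine factor 1 (CLCF1) acts through the ciliary neurotrophic factor receptor together with LIFR and gp130. Binding activates JAK kinases attached to the chains, then STAT3, MAPK and AKT, and STAT3 in turn switches on its own inhibitor SOCS3.

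The measurements are RNA-seq of tumors that grew from 4T1, a mouse mammary carcinoma line labelled TNBC (triple-negative breast cancer), after injection into a mammary fat pad of BALB/c hosts. The LFD group received a diet with 10% of its calories from fat and vehicle (0.3% hydroxy propyl cellulose), the HFD group a diet with 60% of its calories from fat and the same vehicle, and the HFD + EC359 group the 60% fat diet and EC359, a small-molecule LIFR inhibitor, at 5 mg/kg intraperitoneally on 5 days per week. Diets began 6 weeks before the cells were injected and went on to the end. All tumors came from 1 line, in hosts with an intact immune system. There were 3 libraries per group and none of LFD with EC359, so whether changes with EC359 depend on diet could not be tested. The labels do not say whether the libraries of a group came from separate mice. The p-values therefore measure the spread between libraries, which may be technical. Beyond counting noise this spread (edgeR's common coefficient of variation) was small, 5.61% in LFD, 2.54% in HFD and 2.76% in HFD + EC359. Variation between animals may not be part of these p-values.

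The deposited expected counts, rounded to whole numbers, summed to 5085357 to 9751201 per library. A count of 0 would allow up to 3 counts, or 0.308 to 0.59 CPM (counts scaled to a common library total), for counting error only. LFD replicate 1 stood apart from the other LFD libraries, with a mean chi-square per gene of 2.99 and 2.46 against 1.35 for the other LFD pair and 1.40 to 1.55 within the other groups, where counting noise alone gives about 1. For GC content, each gene was set against its own mean over all libraries, so values compare libraries only with each other. On that relative scale, genes of low GC content lay below genes of high GC content in the LFD libraries (log2 difference -0.54 to -0.32). They lay above them in the HFD (0.10 to 0.16) and HFD + EC359 libraries (0.25 to 0.30). Keratin genes of the 4T1 line were present (Krt8, 408 to 599 mean CPM over the groups), as were Erbb2 (74.9 to 107) and, at low levels, Esr1 (6.81 to 12.7), while Pgr was below 1 CPM on average in each group. Cldn7 had at most 3 counts in each library. The summed level of 8 epithelial markers was 1827 to 1961 CPM in LFD, 746 to 755 in HFD and 999 to 1035 in HFD + EC359. Krt14 made up much of this movement, with 762, 40.6 and 237 mean CPM. All 6 tested epithelial markers were lower in HFD than in LFD, Cdh1 among them (28.5 to 5.90 mean CPM), and 5 were higher with EC359 than in HFD. In the same order of groups, 8 fibroblast markers summed to 7756 to 9224, 13504 to 14253 and 3981 to 4086. Collagen genes carried most of the fibroblast sum: with EC359 Col1a1 fell from 6870 to 1613 mean CPM, while Pdgfra rose (375 to 476) and Pdgfrb, Dcn and Fap did not pass, so 4 of the 8 were lower than in HFD and 1 was higher. The 7 macrophage markers summed to 1573 to 1622, 1763 to 1815 and 2252 to 2263 CPM. They did not move together in HFD against LFD, where 4 were called higher and 1 lower. Lyz2 rose from 326 to 583 mean CPM and Mrc1 fell from 567 to 443. With EC359 all 7 were higher than in HFD. In the same order of groups, 5 endothelial markers summed to 155 to 166, 304 to 326 and 266 to 278 CPM and 4 mast cell markers to 73.0 to 79.3, 36.5 to 40.1 and 104 to 112. Of the mast cell markers 3 were lower in HFD than in LFD, while Kit was higher (10.7 to 20.3 mean CPM). For 7 epidermal markers the sums were 200.5 to 211, 125 to 135 and 186 to 192, and for 4 skeletal muscle markers 87.6 to 93.2, 108 to 119 and 61.5 to 67.3. Of the epidermal markers 5 were lower in HFD than in LFD, while Flg2 was higher (7.89 to 11.7 mean CPM). In such bulk samples, fewer cells of a type and less RNA per cell cannot be told apart.

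Lif and Osm lie on chromosome 11 (mm9 chr11:4157571-4172517 and chr11:4136788-4141029, both on the plus strand), 16.5 kb apart, and Lifr and Osmr lie on chromosome 15 (chr15:7079572-7147489, plus strand, and chr15:6763577-6824313, minus strand), 255 kb apart. Il6st is at chr13:113254278-113297068 and Il6ra at chr3:89673246-89717084. The 250 bases before the annotated starts of Lif, Il11, Lifr, Osmr and Il6st are shown with each CpG dinucleotide in capitals. Lif and Il11 are the tested cytokines with the lowest levels per length after EC359, as they also are in LFD. Lifr, Osmr and Il6st are the chains called higher in HFD than in LFD, Lifr only before a correction for GC content and length. The sequences are from RefSeq (GRCm38.p6 table), and each matched the mm9 genome once, at chr11:4157321-4157570 (Lif), chr7:4729744-4729993 (Il11, minus strand), chr15:7079322-7079571 (Lifr), chr15:6824314-6824563 (Osmr, minus strand) and chr13:113254028-113254277 (Il6st). Of the 10 genes, 8 had an entry in that table.
Lif: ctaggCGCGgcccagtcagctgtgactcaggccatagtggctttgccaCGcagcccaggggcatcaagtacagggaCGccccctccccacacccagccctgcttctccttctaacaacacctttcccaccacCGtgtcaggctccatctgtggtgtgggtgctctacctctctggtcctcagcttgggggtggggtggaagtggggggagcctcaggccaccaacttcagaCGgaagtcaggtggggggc
Il11: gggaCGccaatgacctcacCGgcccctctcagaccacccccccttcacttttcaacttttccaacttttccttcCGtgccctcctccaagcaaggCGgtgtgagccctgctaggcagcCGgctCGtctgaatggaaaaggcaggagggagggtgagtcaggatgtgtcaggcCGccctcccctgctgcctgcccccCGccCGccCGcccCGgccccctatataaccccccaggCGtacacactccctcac
Lifr: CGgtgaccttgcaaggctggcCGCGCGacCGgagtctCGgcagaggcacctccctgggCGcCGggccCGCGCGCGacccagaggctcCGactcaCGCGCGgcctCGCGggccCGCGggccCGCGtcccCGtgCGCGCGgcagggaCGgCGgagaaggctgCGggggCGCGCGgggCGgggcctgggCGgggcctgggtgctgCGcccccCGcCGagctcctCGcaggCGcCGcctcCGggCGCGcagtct
Osmr: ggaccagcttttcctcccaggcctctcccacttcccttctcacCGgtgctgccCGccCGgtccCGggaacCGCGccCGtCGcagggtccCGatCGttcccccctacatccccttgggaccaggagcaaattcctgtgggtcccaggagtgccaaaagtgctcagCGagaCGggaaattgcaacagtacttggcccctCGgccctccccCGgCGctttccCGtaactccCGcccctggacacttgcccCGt
Il6st: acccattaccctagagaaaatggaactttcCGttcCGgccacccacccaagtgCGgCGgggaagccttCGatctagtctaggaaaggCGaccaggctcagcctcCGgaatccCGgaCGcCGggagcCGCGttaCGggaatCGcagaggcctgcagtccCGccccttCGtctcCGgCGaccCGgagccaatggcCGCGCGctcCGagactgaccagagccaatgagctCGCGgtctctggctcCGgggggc

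Of the windows shown, those of Lifr, Il6st, Osmr and Il11 held more CpG dinucleotides than that of Lif. Entries not shown held 18 (Il6ra), 4 and 2 (Il11ra1), 3 (Il6), 3 (a second Lifr start) and 1 (a second Il11 start). In the windows shown Lifr had 43, Il6st 26, Osmr 18, Il11 12 and Lif 6, where the median over 32851 promoters of the same length was 6 (quartiles 2 and 16). Of all these promoters, 99.3% had fewer CpG than Lifr and 49.7% had fewer than Lif. The AP-1 motif TGANTCA, searched on both strands, which this palindrome reads alike, was found in the windows of Lif (position -228 from the start), Il11 (-98) and Il6 (-249), and in 6.75% of all promoters. The STAT motif TTCNNNGAA, also a palindrome, was in 7.02% of all promoters and in 0 of the 11 entries of these genes.

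Per exonic length (RPKM), gp130 was the most abundant chain and the private chains and cytokines ranged widely. In HFD tumors the order was Il6st (53.8 RPKM ± 2.1, SD, n = 3), Clcf1 (42.8 ± 5.30), Osmr (39.5 ± 1.42), Il6ra (34.6 ± 0.666), Il11ra1 (12.9 ± 0.670), Lifr (7.88 ± 0.153), Lif (4.52 ± 0.439), Osm (4.39 ± 0.499), Il11 (2.53 ± 0.207) and Il6 (0.764 ± 0.0744). Among neighbours in this order, the libraries of Clcf1 and Osmr overlapped, as did those of Lif and Osm, and the other neighbours did not. In LFD tumors Clcf1 came first (62.3 ± 12.0 RPKM), ahead of Il6st (45.6 ± 2.26), Il6ra (41.0 ± 1.52) and Osmr (28.3 ± 4.82), and among neighbours only Lifr (6.95 ± 0.559) and Osm (5.91 ± 0.844) overlapped. In HFD + EC359 tumors Il6st (56.7 ± 1.27) was followed by Osmr (45.2 ± 0.760), Il6ra (41.4 ± 1.27) and Clcf1 (36.9 ± 3.39). There Lifr (10.3 ± 0.597) stood beside Il11ra1 (9.66 ± 0.617), and Lif (2.72 ± 0.310) lay below Osm (4.06 ± 0.559). Neighbours that overlapped in that group were Il6ra with Clcf1 and Lifr with Il11ra1. The annotated exons of Clcf1 are short, 818 bases, against 10333 for Lifr, so equal RPKM means many fewer reads for Clcf1.

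**Figure D1:**
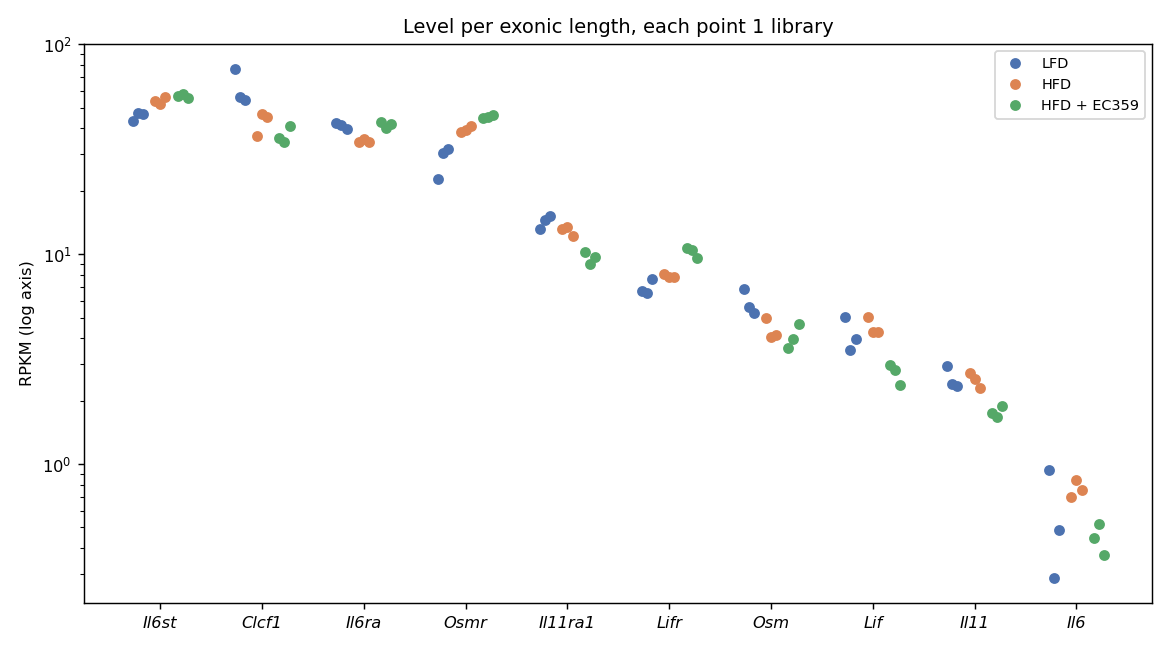
Level of each gene per exonic length (RPKM, log axis), each point 1 library, colored by group. Il6st, Clcf1, Il6ra and Osmr lie between 22.8 and 76.0 RPKM, and Il6 lies below 1 in every library.

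The first question was whether a high-fat diet changed the family. The chains that build the LIF and OSM receptors (Lifr, Osmr, Il6st) were higher in HFD than in LFD tumors, whereas Il6ra and the cytokines Clcf1 and Osm were lower. The calls of Lifr, Clcf1 and Osm were lost after the correction for GC content and length described below. The GC differences follow the groups, so this correction may also remove changes of the tumors, which was not tested. Of the 9 genes with enough counts to test, 6 passed an adjusted p of 0.05 (edgeR's quasi-likelihood test, Benjamini-Hochberg over all 13366 tested genes), 3 higher and 3 lower, where 51.8% of all tested genes passed, 26% higher and 25.8% lower. Their median log2 fold change was -0.01, against 0.01 over all tested genes. The groups did not overlap for 6 of the 9 genes, against 57.1% of all tested genes. None of the 9 (0) passed the threshold of the study's methods, a fold change over 2 with an adjusted p under 0.01, where 5.71% of all genes did.

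Osmr, which binds OSM together with gp130, was at 110, 148 and 153 CPM in the LFD libraries and 185, 190 and 198 in the HFD libraries. All HFD libraries lay above all LFD libraries, and LFD replicate 1 was the lowest of the 9. Its log2 fold change was 0.47 (SE 0.0645, edgeR adjusted p = 2.85e-07), 0.35 without LFD replicate 1, and 0.24 (adjusted p = 0.000576) after correction for GC content and gene length (a smooth trend over both, removed in each library). Il6st was at 234, 257 and 254 CPM in LFD and 292, 283 and 306 in HFD. The groups did not overlap, with a log2 fold change of 0.24 (SE 0.0425, edgeR adjusted p = 2.06e-05).

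Lifr, the chain that EC359 targets, was at 69.2, 67.8 and 78.4 CPM in LFD and 83.2, 80.4 and 80.5 in HFD. The HFD libraries were close together and just above the highest LFD library. The log2 fold change was 0.18 (SE 0.0629, edgeR adjusted p = 0.0159). The call was lost without LFD replicate 2 (0.13), without HFD replicate 1 (0.17) and with DESeq2 (0.18), and after the correction for GC content and length the value was -0.07 (SE 0.0614, edgeR adjusted p = 0.411). Genes within 1 percentage point of the GC content of Lifr (45.3%) had a median log2 fold change of 0.16.

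Il6ra, the private IL-6 chain, was at 142, 138 and 132 CPM in LFD and 114, 118 and 114 in HFD. It was lower in every HFD library, with a log2 fold change of -0.24 (SE 0.0486, edgeR adjusted p = 8.67e-05). Clcf1 was at 62.2, 46.2 and 44.4 CPM in LFD and 30.0, 38.0 and 36.9 in HFD. The groups did not overlap, and LFD replicate 1 was the highest. On the log2 scale Clcf1 changed by -0.53 (SE 0.106, edgeR adjusted p = 8.85e-05), -0.38 without LFD replicate 1, and -0.23 (adjusted p = 0.0565) after that correction. Clcf1 has the highest GC content of the 10 genes, 62.0%.

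Osm was at 13.1, 10.7 and 10.0 CPM in LFD and 9.46, 7.73 and 7.90 in HFD. The lowest LFD library was only just above the highest HFD library. The log2 fold change of -0.42 (SE 0.162, edgeR adjusted p = 0.0319) did not pass without LFD replicate 1 (-0.31), HFD replicate 2 (-0.36) or HFD replicate 3 (-0.38), nor with DESeq2 (-0.43), library totals (-0.37), thinned counts (-0.41) or the correction for GC content and length (-0.32, adjusted p = 0.113). Lif itself was at 20.3, 14.1 and 16.0 CPM in LFD and 20.3, 17.2 and 17.3 in HFD, so the groups overlapped, though only through LFD replicate 1. The log2 fold change of Lif was 0.14 (95% interval -0.13 to 0.41, edgeR adjusted p = 0.381). Over all 21 alternatives the value ran from 0.02 to 0.28 and never passed. Il11 (log2 fold change -0.01, interval -0.45 to 0.43) and Il11ra1 (-0.16, interval -0.36 to 0.04) did not pass either.

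**Figure D2:**
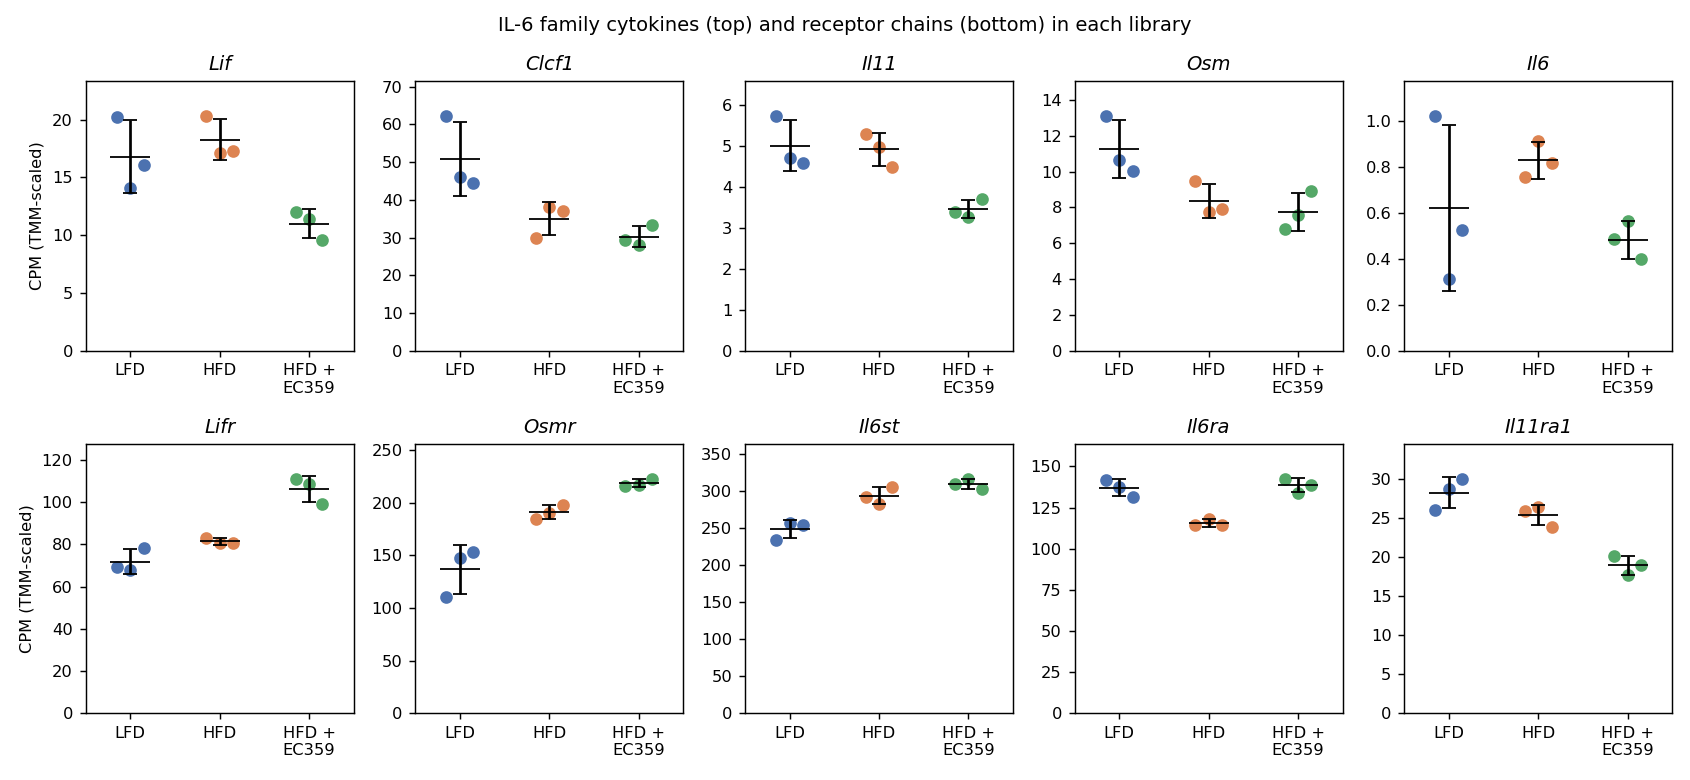
TMM-scaled CPM of the 5 cytokines (top) and 5 receptor chains (bottom), each point 1 library, with the mean and SD (n = 3) in black. Lif is lower in all 3 HFD + EC359 libraries (9.60 to 12.0 CPM) than in any other, and Lifr is higher in them (99.3 to 111 CPM) than in any other.

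The second question was what EC359 changed in HFD tumors. Lif and Il11ra1 fell and Lifr, Il6ra and Osmr rose, and Lif had the largest change of the 9 genes. By edgeR's quasi-likelihood test 5 of 9 genes passed, 3 higher and 2 lower, where 26.6% of all tested genes passed, 12.7% higher and 13.9% lower. The median log2 fold change was -0.36 for the tested cytokines and 0.20 for the receptor chains, against 0.01 over all tested genes. The groups did not overlap for 6 of the 9, against 41.3% of all tested genes. The study's threshold was passed by 0 of the 9 and by 3.43% of all genes.

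Lif was at 20.3, 17.2 and 17.3 CPM in the HFD libraries, from 161, 131 and 127 counts, and at 12.0, 11.4 and 9.60 CPM in the HFD + EC359 libraries, from 99, 101 and 96 counts. Every treated library lay below every HFD library, and below every LFD library. That is a log2 fold change of -0.74 (SE 0.128, edgeR adjusted p = 3.7e-05), a level 40% lower by the fitted fold of 0.598, and it was -0.74 after correction for GC content and length. Over all alternatives the value ran from -0.81 to -0.65.

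Lifr was at 111, 109 and 99.3 CPM in HFD + EC359 and 83.2, 80.4 and 80.5 in HFD. All treated libraries were above all HFD libraries. The log2 fold change was 0.38 (SE 0.0553, edgeR adjusted p = 2.08e-06), and 0.34 after that correction. Genes of like GC content had a median of 0.06.

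Il6ra was at 142, 134 and 139 CPM in HFD + EC359, overlapping the LFD libraries and above the HFD libraries. Its log2 fold change against HFD was 0.26 (SE 0.0458, edgeR adjusted p = 4.67e-05). Osmr was at 216, 217 and 223 CPM, above the 3 HFD libraries. Its log2 fold change of 0.20 (SE 0.0584, edgeR adjusted p = 0.0118) did not pass without HFD replicate 1 (0.17), HFD replicate 2 (0.19) or HFD + EC359 replicate 3 (0.18), nor with DESeq2 (0.19, adjusted p = 0.312).

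Il11ra1, the private IL-11 chain, was at 20.1, 17.7 and 19.0 CPM in HFD + EC359 against 25.9, 26.3 and 23.9 in HFD, and the groups did not overlap. The log2 fold change was -0.42 (SE 0.0967, edgeR adjusted p = 0.00117). Its values are uncertain, since 49.1% of its 50-base exon windows also occur in Gm13305, Gm2002 or Il11ra2, so reads could be split among these copies. Il11 was at 5.30, 4.98 and 4.50 CPM in HFD and 3.40, 3.27 and 3.70 in HFD + EC359. Although the groups did not overlap, the log2 fold change of -0.51 (SE 0.207) had an edgeR adjusted p of 0.0689. Il6st (0.08, interval -0.01 to 0.16), Clcf1 (-0.21, interval -0.42 to 0.01) and Osm (-0.10, interval -0.42 to 0.22) did not pass.

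Il6 was too low to test, with 2 to 7 counts per library. The libraries held 5, 2 and 3 counts in LFD, 6, 7 and 6 in HFD and 4, 5 and 4 in HFD + EC359. The counts were higher in each HFD library than in each treated library, but the ratio of HFD + EC359 to HFD after scaling was 0.578 with an exact 95% interval of 0.262 to 1.23, which covers counting error only. HFD to LFD was 1.40 (0.621 to 3.38).

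Compared with LFD, the HFD + EC359 tumors had higher Lifr (log2 fold change 0.56), Osmr (0.66) and Il6st (0.31) and lower Lif (-0.60), Clcf1 (-0.74), Osm (-0.52), Il11 (-0.52) and Il11ra1 (-0.58). These 8 of 9 genes passed edgeR's quasi-likelihood test, 3 higher and 5 lower, where 58.3% of all tested genes passed, 29.2% higher and 29.1% lower. The groups did not overlap for 8 of 9, against 62.9% of all genes, and 0 passed the study's threshold, against 5.09%. Il6ra did not pass (0.02, interval -0.08 to 0.11). After correction for GC content and length the values were 0.28 for Lifr, 0.38 for Osmr, -0.39 for Clcf1 and -0.28 for Il11ra1. The Il11 call (edgeR adjusted p = 0.0457) was lost in 16 of 21 alternatives. The 3 comparisons share libraries, so they are not independent of each other. The cell type markers moved between these groups as given above, and their part in the values of the family was not tested.

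**Figure D3:**
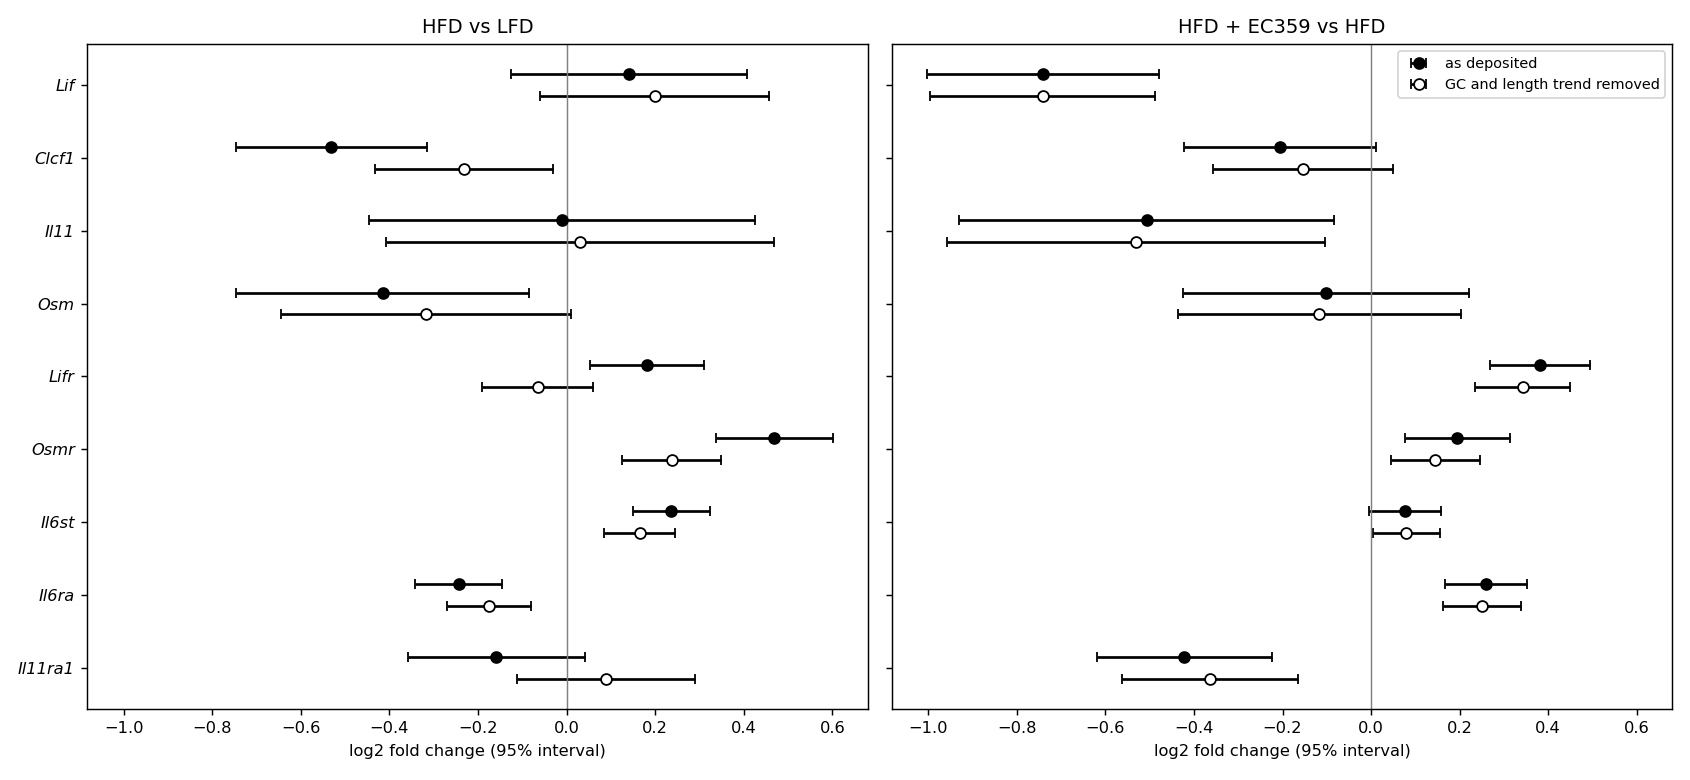
Log2 fold changes of the 9 tested genes with 95% intervals, for HFD against LFD (left) and HFD + EC359 against HFD (right), from the counts as deposited (filled) and after correction for GC content and length (open). On the left, Lifr moves from 0.18 to -0.07, and on the right Lif stays at -0.74.

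Ratios within a library do not depend on its depth. They were not corrected for GC content, in which genes of a ratio can differ (Lif 52.9%, Lifr 45.3%). The ratio of Lif to Lifr (RPKM over RPKM) was 0.749, 0.533 and 0.523 in LFD, 0.624, 0.546 and 0.550 in HFD and 0.277, 0.269 and 0.247 in HFD + EC359. The treated libraries lay below all 6 others, which overlapped each other. The group means were 0.602 ± 0.128, 0.573 ± 0.0441 and 0.264 ± 0.0152 (SD, n = 3), and an exact permutation test of 3 against 3 libraries cannot give a two-sided p below 0.1. The ratio of Il6st to Lifr was 6.58 ± 0.550, 6.83 ± 0.310 and 5.53 ± 0.245, and the treated libraries were again below the others. Il6ra to Il6st was 0.901 ± 0.0745 in LFD, 0.643 ± 0.0358 in HFD and 0.730 ± 0.0341 in HFD + EC359, with the 3 groups apart. Osmr to Lifr was 4.08 ± 0.629, 5.02 ± 0.260 and 4.41 ± 0.340, and the HFD + EC359 libraries overlapped both other groups.

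**Figure D4:**
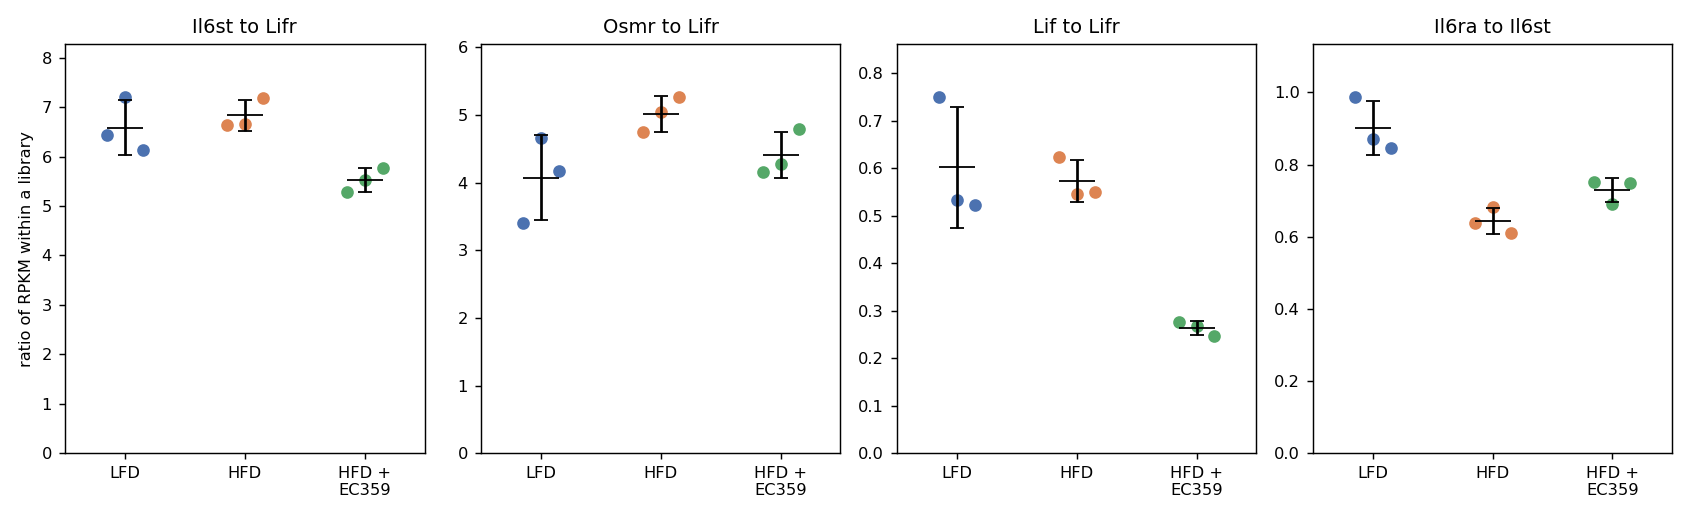
Ratios of RPKM within each library, each point 1 library, with the mean and SD (n = 3) in black. The Lif to Lifr ratio is 0.247 to 0.277 in the HFD + EC359 libraries and 0.523 to 0.749 in the other 6.

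Other members of the wider family, 15 genes on the list, gave 9 tested, of which 2 were higher and 2 lower in HFD than in LFD and 2 higher and 1 lower with EC359, where 51.8% and 26.6% of all tested genes were called. Lepr, the leptin receptor, a gp130-like chain, rose from 2.05, 2.67 and 3.35 CPM in LFD to 8.32, 9.96 and 7.09 in HFD. The HFD libraries lay well above the LFD libraries, with a log2 fold change of 1.63 (SE 0.232, edgeR adjusted p = 4.95e-07). In HFD + EC359 it was 4.37, 3.61 and 4.40 CPM, between the other groups, and the log2 fold change against HFD was -1.03 (SE 0.188, edgeR adjusted p = 7.5e-05). Cntfr, the chain that CLCF1 uses, had 13, 13 and 10 counts in LFD and 2, 2 and 2 in HFD, a ratio of 0.123 (exact 95% interval 0.0424 to 0.295, counting error only). Csf3, which encodes the granulocyte growth factor G-CSF, fell in HFD (log2 fold change -0.86). With EC359, Ebi3, a subunit of IL-27, and Csf3r, the G-CSF receptor, were higher (0.75 and 0.20), both calls being lost with DESeq2 and, among others, without HFD replicate 2.

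All 16 JAK-STAT and adaptor genes were tested, and 4 were higher and 5 lower in HFD than in LFD (median log2 fold change -0.04, 0.01 over all genes), where 51.8% of all tested genes were called. After correction for GC content and length 3 were higher and 3 lower, where 5751 of the 13366 tested genes were called. Hras was lower (-0.41), a call lost after correction for GC content and length (-0.19). With EC359, 3 were higher and 4 lower than in HFD (median 0.03), against 26.6% of all genes called, and the largest called changes were in Gab1, an adaptor (-0.23), Stat5a (0.22) and the kinase Jak2 (-0.20). The Gab1 call was lost in 6 and the Stat5a call in 5 of 14 alternatives, DESeq2 among them for both, and the Jak2 call in 0. This count of 7 fell to 2 with DESeq2, to 2 without HFD replicate 1, to 1 without HFD replicate 2, to 3 without HFD + EC359 replicate 1 and to 4 without HFD + EC359 replicate 2. Stat3, named here after its values were seen, was at 345 ± 11.6 CPM in HFD and 315 ± 5.76 in HFD + EC359 (log2 fold change -0.13, SE 0.0370, edgeR adjusted p = 0.00742), a call lost without HFD replicate 2 (-0.10).

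Of the 10 feedback genes, 1 was higher and 4 were lower in HFD than in LFD (median log2 fold change -0.01), against 51.8% of all genes called. After correction for GC content and length 3 were higher and 3 lower, where 5751 of the 13366 tested genes were called. Socs3, the STAT3-induced inhibitor of gp130, fell with HFD (266 ± 17.2 to 201 ± 9.60 CPM, log2 fold change -0.40, edgeR adjusted p = 9.82e-08) and again with EC359 (to 159 ± 13.2 CPM, log2 fold change -0.34, edgeR adjusted p = 4.56e-06). Pias1, a STAT inhibitor, rose with HFD (0.65), and Socs1 was lower (-0.42). After correction for GC content and length the HFD values were -0.14 for Socs3 and 0.42 for Pias1, and the Socs1 call was lost (-0.12). With EC359, 2 were higher and 2 lower than in HFD (median -0.05), against 26.6% of all genes called. Cish, a SOCS family gene, rose (0.46) and Ptpn6, the phosphatase SHP-1, was also higher (0.25), a call lost with DESeq2. This count of 4 fell to 2 without HFD replicate 2 and without HFD + EC359 replicate 3.

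Of the 3 proteases that can shed such receptors, Adam10 (0.36) and Bace1 (0.35) were higher in HFD than in LFD, where 51.8% of all tested genes were called. With EC359 Bace1 fell (-0.24) and Adam10 was higher (0.16), against 26.6% of all genes called. Correction for GC content and length ended both Adam10 calls (0.04 and 0.07). It gave 1 higher and 1 lower in HFD, where 5751 of the 13366 tested genes were called. The Bace1 call with EC359 was lost without HFD replicate 2.

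Acute phase and STAT3 target genes gave 2 higher and 8 lower of 17 in HFD against LFD (median log2 fold change -0.21), where 26% of all tested genes were higher and 25.8% lower. After correction for GC content and length this became 4 higher and 6 lower, where 5751 of the 13366 tested genes were called. Bcl3 (0.30), Lrg1 (0.39) and Il1rn (-0.41) then passed, and Junb, Fos and Myc no longer did. Between HFD + EC359 and HFD 2 were higher and 12 lower (median -0.22, 0.01 over all genes), where 12.7% of all genes were higher and 13.9% lower. Saa3, an acute phase protein, went up and then down, from 11.0 ± 1.80 CPM in LFD to 40.8 ± 0.831 in HFD and 12.1 ± 0.617 in HFD + EC359 (log2 fold changes 1.88 and -1.76). Lcn2, an iron-binding acute phase protein, rose with HFD (1.33), and EC359 gave a value of 0.13 that was not past the threshold. The kinase gene Pim1 was lower in HFD (-0.50). With EC359 Lrg1 fell (-0.63) and Il1rn, the IL-1 receptor antagonist, rose (0.58). The LIFR target genes of the study's primer table, a list the study chose and which shares Myc, Junb, Timp1, Bcl3, Mcl1 and Pim1 with the previous one, gave 2 higher and 7 lower of 14 in HFD against LFD, and again 2 higher and 7 lower with EC359, against 51.8% and 26.6% of all genes called. After correction for GC content and length the HFD count was 2 higher and 4 lower, where 5751 of the 13366 tested genes were called. Junb, Id1, Tnfrsf1a and Myc were lost, and Hif1a turned from 0.19 to -0.15. In HFD the largest called changes were in Pim1 (-0.50), Mcl1 (-0.48) and Akt1 (-0.46), and with EC359 in Id2 (0.62), Timp1 (-0.55) and Junb (-0.42). The HFD values of Pim1 and Akt1 after correction for GC content and length were -0.26 and -0.19.

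**Figure D5:**
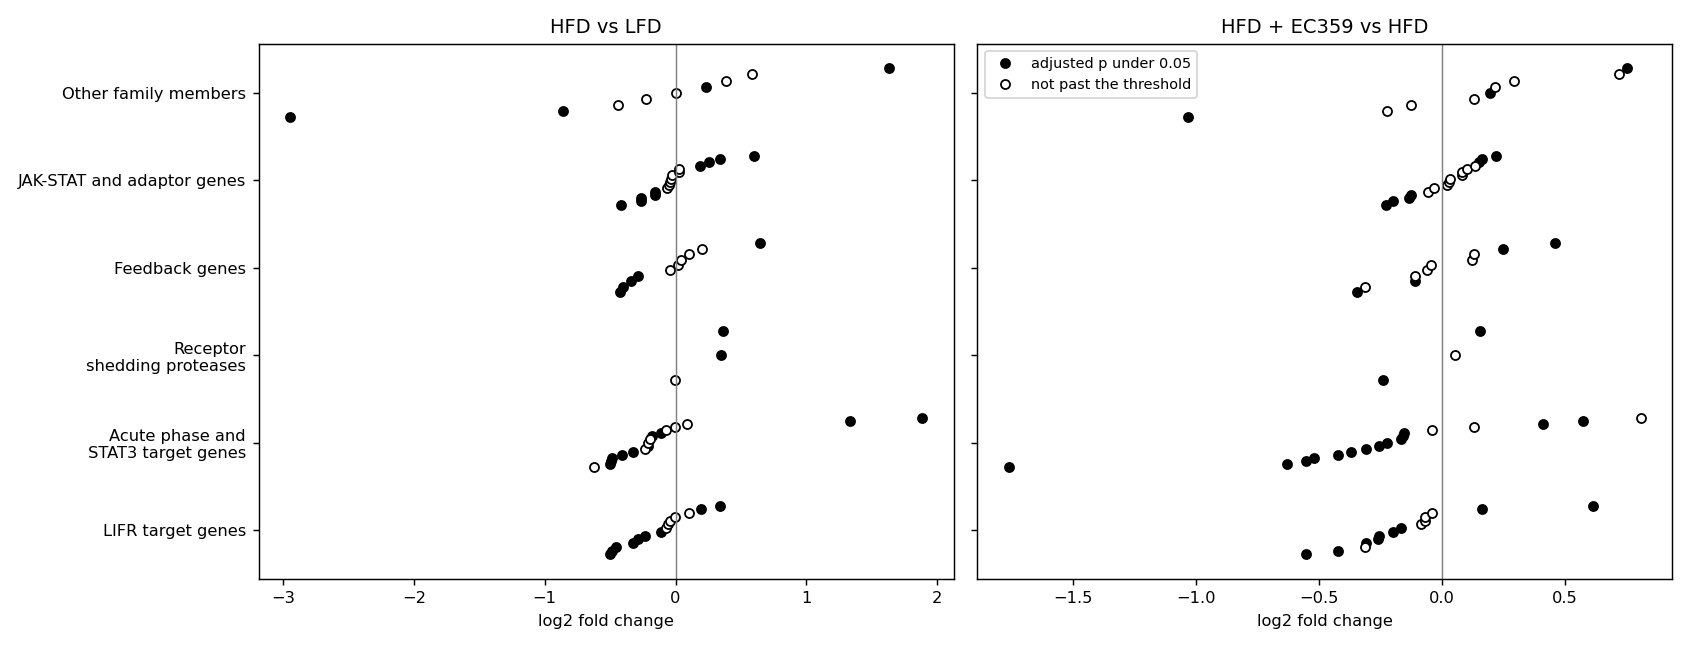
Log2 fold change of each tested gene of the pathway lists, HFD against LFD (left) and HFD + EC359 against HFD (right), filled where edgeR's adjusted p was under 0.05. In the acute phase and STAT3 target list, 12 of 17 genes are filled and below 0 on the right.

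Genes whose log2 CPM followed a member most closely over the 9 libraries were given by Pearson correlation as a description. For Lif these were Hist1h4i (r = 0.97), Marcks and Mrpl11, for Lifr Lilrb3 (0.98) and Tnfrsf11a (0.98), for Il6st Gm14139 (0.99), Dennd4a and Dcun1d1, and for Osmr Srp72 (0.99), Rnd3 and Tax1bp1, out of 13308 candidates. The libraries share groups, depth and GC content.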

How the data were processed

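RNA of 4T1 tumors was sequenced in 9 stranded mRNA libraries as read pairs, 3 per group. The authors deposited expected counts per gene, made with featureCounts (1.5.0-p1) against mm9, with pairs matching several genes or places counted in fractions and no normalization. The submitters' notes name HISAT2 (2.1.0), the methods TopHat2 and HTSeq. Values were rounded to whole numbers, edgeR's filterByExpr kept 13366 of 22609 genes, and 1 quasi-likelihood model of the 3 groups (edgeR 4.0.16, limma 3.58.1, R 4.3.3, TMM factors) gave log2 fold changes with Benjamini-Hochberg adjusted p. CPM scales counts to the total of the tested genes after TMM, and RPKM divides it by the exonic length of the files. Log2 CPM used a prior count of 2. Alternatives were DESeq2 (1.42.0), other scalings and filters, the replicate number as a block, a spline over GC content and length removed per library (the correction for GC content and length), thinning to the smallest library and each library left out. The fit was tested on simulated data. Beyond the members, at most 3 called genes with the largest change are named per list and comparison. The results of 3 genes that these rules name are not reported here. The members and lists were chosen with earlier results of these data known.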

Additional observations from a re-analysis of the deposited data

How the results depend on the processing

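At the study's threshold 0 of the 9 genes passed in each comparison. Correction for GC content and length left 3 calls in HFD against LFD, where 5751 of the 13366 tested genes were called. With the replicate block as well, 3 calls were left. Leaving out 1 library at a time gave 5 to 6 calls in HFD against LFD, 4 to 5 between HFD + EC359 and HFD, and 7 to 8 between HFD + EC359 and LFD. The sign changed for Il11 in HFD against LFD (0.0322 with library totals, 0.0306 after the correction, 0.0242 with block and correction, 0.0547 thinned, and -0.0661 to 0.0847 with 1 library left out, above 0 without LFD replicate 1 or HFD replicate 3). In the same comparison it changed for Lifr (-0.0657 after the correction, -0.0691 with the block too) and Il11ra1 (0.0888 and 0.0898). It also changed for Osm between HFD + EC359 and HFD (0.0043 thinned) and for Il6ra between HFD + EC359 and LFD (-0.0123 to 0.0387 with 1 library left out, below 0 without LFD replicate 3 or HFD + EC359 replicate 1). The cause was not tested. Same-numbered libraries did not deviate together (correlations -0.03 to 0.02, 0 of 9 libraries closest to their own number). Deviations within a group were mostly close to counting noise, so this check could miss a pairing. With the replicate block 6, 5 and 7 genes passed, and it ended the call of Il11 against LFD (-0.52). Depth limits Il6 (2 to 7 counts) most.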
